A study of Rattus norvegicus with 10 samples.

Results

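Here 9 genes of thyroid hormone carriage, uptake, activation and signalling were followed in rat liver, out of 14217 genes measured. They were read by 18 of the 31042 probe sets of the array, taken as all probe sets that the platform annotation assigns to a single gene among Serpina7, Ttr, Dio1, Thra, Thrb, Slc16a10, Klf9, Hr and Tbl1x. A probe set annotated to Ttr and to metallothionein genes together was left out. The samples were 10 livers of female Harlan Sprague-Dawley rats, whose age is not given in the labels. The 5 I3C samples came from rats given indole-3-carbinol, a compound released from cruciferous vegetables, at 300 mg per kg by gavage in corn oil on 5 days of each week. Corn oil alone, labelled as a dose of 0 mg per kg, was given by the same route and schedule for the 5 vehicle samples. Dosing lasted 13 weeks per the labels, whereas the design text of the series describes a study of 2 years. Each array carries RNA of whole liver, so that fewer cells of a type and less RNA per cell cannot be told apart. The titles number the samples within each group but do not say whether each is a separate animal, so p-values here reflect only how these 10 samples spread.

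Thyroxine leaves the thyroid gland and travels in plasma bound to carrier proteins that the liver makes. In hepatocytes it is taken up by membrane transporters, converted by deiodinases to the active hormone T3 or to inactive forms, and cleared as glucuronide and sulfate conjugates. T3 binds nuclear receptors, which hold target genes down together with corepressor complexes in its absence and activate them when it is bound.

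Levels of marker lists are compared here only between groups. The mean log2 level of 10 hepatocyte markers was 13.96 to 14.08 in I3C livers and 14.005 to 14.06 in vehicle livers, and 1 of them, Apoa1, rose by 0.38 ± 0.07 (SE, limma adjusted p = 0.00883). That of 6 thyroid follicular cell markers, among them Tg and Slc5a5, lay between 4.95 and 5.14 in I3C livers and between 4.92 and 5.14 in vehicle livers, and 0 of them passed limma (0 at an unadjusted p under 0.05). Cyp1a1, the cytochrome P450 that ligands of the aryl hydrocarbon receptor induce, was at 13.86 to 13.97 in I3C livers and at 5.13 to 6.08 in vehicle livers. All 7 measured Kupffer cell markers were lower in I3C livers, with a mean level of 8.96 to 9.39 against 9.49 to 9.82 in vehicle livers. C1qa alone passed limma, and 6 of the 7 were lower at an unadjusted p under 0.05, against 10.2% of all genes. Of 7 pancreatic acinar markers Cpa1 fell (2 lower and 1 higher at an unadjusted p under 0.05). Of 8 stellate cell markers 2 fell, Lrat by 0.51 ± 0.10 and Colec11 by 0.34 ± 0.07, and 1 rose, Rgs5 by 1.33 ± 0.18 (SE). Without adjustment 3 were lower and 1 higher. Of all genes, 3.11% fell and 3.32% rose in limma, and 10.2% were lower and 9.62% higher at an unadjusted p under 0.05. No endothelial (5) or cholangiocyte (4) marker passed limma (1 and 0 at an unadjusted p under 0.05). The part of other cell types in the results below was not tested. The 3' minus 5' log2 difference of the GAPDH control, a measure of RNA quality, was 0.23 ± 0.05 in I3C arrays and 0.45 ± 0.12 in vehicle arrays (SD, n = 5 each, exact permutation p = 0.00794, two-sided, 0.0159 adjusted over 2 controls). For beta-actin it was 1.40 ± 0.14 in I3C arrays and 1.59 ± 0.12 in vehicle arrays (SD, n = 5 each, exact permutation p = 0.0476, adjusted p = 0.0476). The GAPDH values were 0.16 to 0.29 in I3C arrays and 0.32 to 0.65 in vehicle arrays, without overlap. A model that holds the GAPDH difference therefore cannot tell RNA quality from treatment, and a call lost in it decides neither. Vehicle 5 stood farthest from its own group: its mean correlation with the other vehicle arrays was 0.986, against 0.992 to 0.993 for those arrays with theirs.

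The stretches before the transcript starts of the carriers Serpina7 and Ttr and of Tbl1x are shown because Serpina7 and Tbl1x were the genes with a called change, while Ttr, the other plasma carrier, had no called change. Each is the 250 bases before the start that RefSeq's promoter table uses on assembly GRCr8, written 5′ to 3′ on the gene's strand, with the hexamer GTTAAT or its reverse complement ATTAAC, part of the site of the liver factor HNF1, in capitals. They lie at chrX:107457682-107457931 (minus strand), chr18:12218508-12218757 (plus strand) and chrX:45528550-45528799 (plus strand).
Serpina7: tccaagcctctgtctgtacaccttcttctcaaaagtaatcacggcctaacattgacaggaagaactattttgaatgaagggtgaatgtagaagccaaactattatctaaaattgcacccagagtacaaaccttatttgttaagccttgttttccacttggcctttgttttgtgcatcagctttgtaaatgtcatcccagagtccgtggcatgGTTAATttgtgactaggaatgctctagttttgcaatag
Ttr: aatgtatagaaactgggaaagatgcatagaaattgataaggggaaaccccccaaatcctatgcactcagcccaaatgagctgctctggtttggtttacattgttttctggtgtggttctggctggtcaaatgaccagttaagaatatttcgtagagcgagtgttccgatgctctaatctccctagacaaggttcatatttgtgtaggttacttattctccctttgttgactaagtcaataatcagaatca
Tbl1x: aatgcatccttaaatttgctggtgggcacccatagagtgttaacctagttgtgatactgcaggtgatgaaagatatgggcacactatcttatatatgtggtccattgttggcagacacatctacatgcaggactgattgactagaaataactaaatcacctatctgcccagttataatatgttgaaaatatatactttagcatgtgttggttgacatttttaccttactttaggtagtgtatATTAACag
In Serpina7 the hexamer begins 38 bases before the start and in Tbl1x 8 bases before it, and Ttr has no exact match. A site that departs from these letters would be missed, so Ttr is not shown to lack one. The table held a promoter for 8 of the 9 genes. The hexamer stood in 3 of these 8, Thrb included, and in 6.45% of 33469 promoters of that length. GCGTG, the core bound by the aryl hydrocarbon receptor, was searched on both strands and stood in 3 of 8 (Thrb, Slc16a10 and Klf9) and in 25.9% of all. AGGTCA, the hexamer bound by many nuclear receptors, stood in 1 of 8 (Slc16a10) and in 14.1% of all. A match describes letters and was not tested as a site, and the starts used for these 3 genes lie inside longer RefSeq gene spans.

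Serpina7 and Tbl1x fell in I3C livers, and no probe set of the other genes passed the test. Of the 18 probe sets 2 fell and 0 rose. Over all probe sets, 2.30% fell and 2.49% rose in the same limma fit, with Benjamini-Hochberg adjustment over 31042 probe sets and a threshold of 0.05. At an unadjusted p under 0.05, 3 of the 18 were lower and 0 higher, against 8.36% lower and 7.76% higher of all probe sets. The groups did not overlap for the same 2 probe sets, against 6.50% of all probe sets. Counted by gene through the brightest probe set, 2 of 9 fell, against 3.11% of 14217 genes, and 0 rose, against 3.32%. The median log2 difference was -0.12 over the 18 probe sets and -0.0033 over all 31042, and 13 of the 18 were lower in I3C livers, against 51.2% of all. The plot of differences shows Serpina7 far from the other probe sets.

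**Figure D1:**
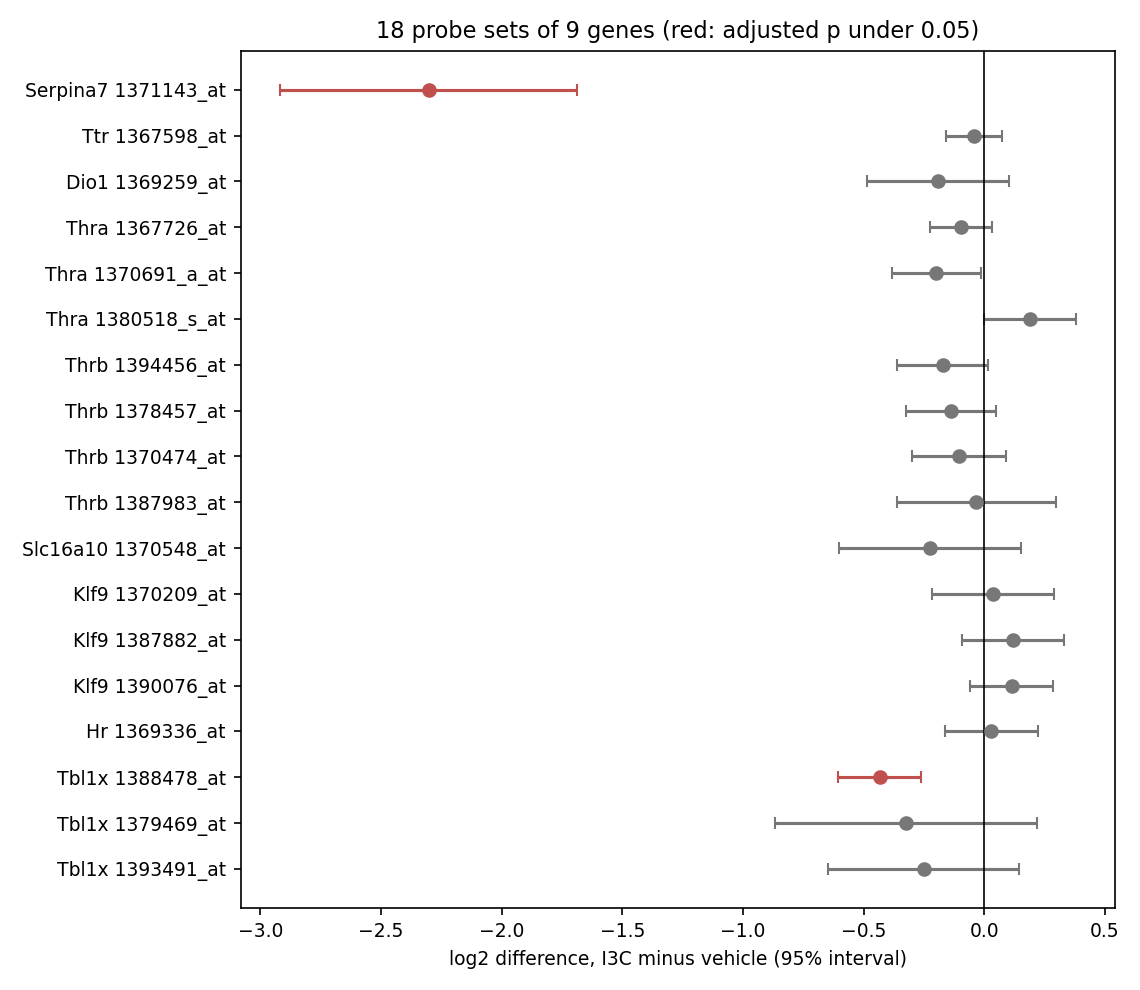
Log2 difference between I3C and vehicle livers (x axis) for the 18 probe sets of 9 genes (y axis, gene and probe set), with 95% intervals from limma and n = 5 per group. Red marks an adjusted p under 0.05. Serpina7 at -2.30 and 1 probe set of Tbl1x at -0.43 are red, and the other 16 lie between -0.32 and 0.19.

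Of the plasma carriers, Serpina7 fell. Serpina7 (probe set 1371143_at) encodes thyroxine-binding globulin, a serpin without protease-inhibiting activity that binds thyroxine with high affinity. Its log2 level was 8.03, 9.19, 9.20, 8.66 and 8.84 in I3C livers 1 to 5, and 11.25, 11.44, 10.54, 11.83 and 10.37 in vehicle livers 1 to 5. Every I3C liver lay below every vehicle liver, with a gap of more than 1 log2 unit between the groups. The means were 8.78 ± 0.48 in I3C livers and 11.09 ± 0.62 in vehicle livers (SD, n = 5 each). Serpina7 fell by 2.30 ± 0.28 (SE, limma adjusted p = 0.000512), a level 4.93-fold lower in I3C livers with a 95% interval of 3.22-fold to 7.55-fold. This was the fifth deepest difference among 14217 genes. Leaving out any 1 array gave -2.48 to -2.11, with adjusted p up to 0.0022, and -2.48 came without vehicle 5. A model that held the GAPDH difference gave -2.72 ± 0.46 (adjusted p = 0.0173), and one that held the beta-actin difference gave -2.02 ± 0.36 (adjusted p = 0.0121).

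Ttr (1367598_at) encodes transthyretin, which carries thyroxine and, with retinol-binding protein, retinol. It was at 14.46, 14.49, 14.54, 14.50 and 14.49 in I3C livers and at 14.52, 14.53, 14.50, 14.55 and 14.60 in vehicle livers. The ranges overlapped, and the difference was -0.04 ± 0.05 (SE, adjusted p = 0.799) with a 95% interval of -0.16 to 0.07. These levels are close to the highest value in the table, 15.12, where the scale leaves little room for a rise and a fall can be understated. Albumin, a further carrier of thyroxine, was at 15.09 to 15.12 in I3C livers and at 15.10 to 15.12 in vehicle livers, at that upper end. Within arrays, the change of Serpina7 minus that of Ttr was -2.26 ± 0.35 (SE, n = 5 per group, exact permutation p = 0.00794, 0.0238 adjusted over 3 gene pairs). Its p is the smallest that 252 splits allow. The gap between the groups in Serpina7 was wider than the whole spread of Ttr, so this p had to result. It therefore adds no evidence beyond the fall of Serpina7. The value of -2.26 is mostly that fall, and as read by the array Ttr changed by less. Ttr is read near the top of the scale, where a difference can be understated, so the gap in RNA may be smaller than this value.

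**Figure D2:**
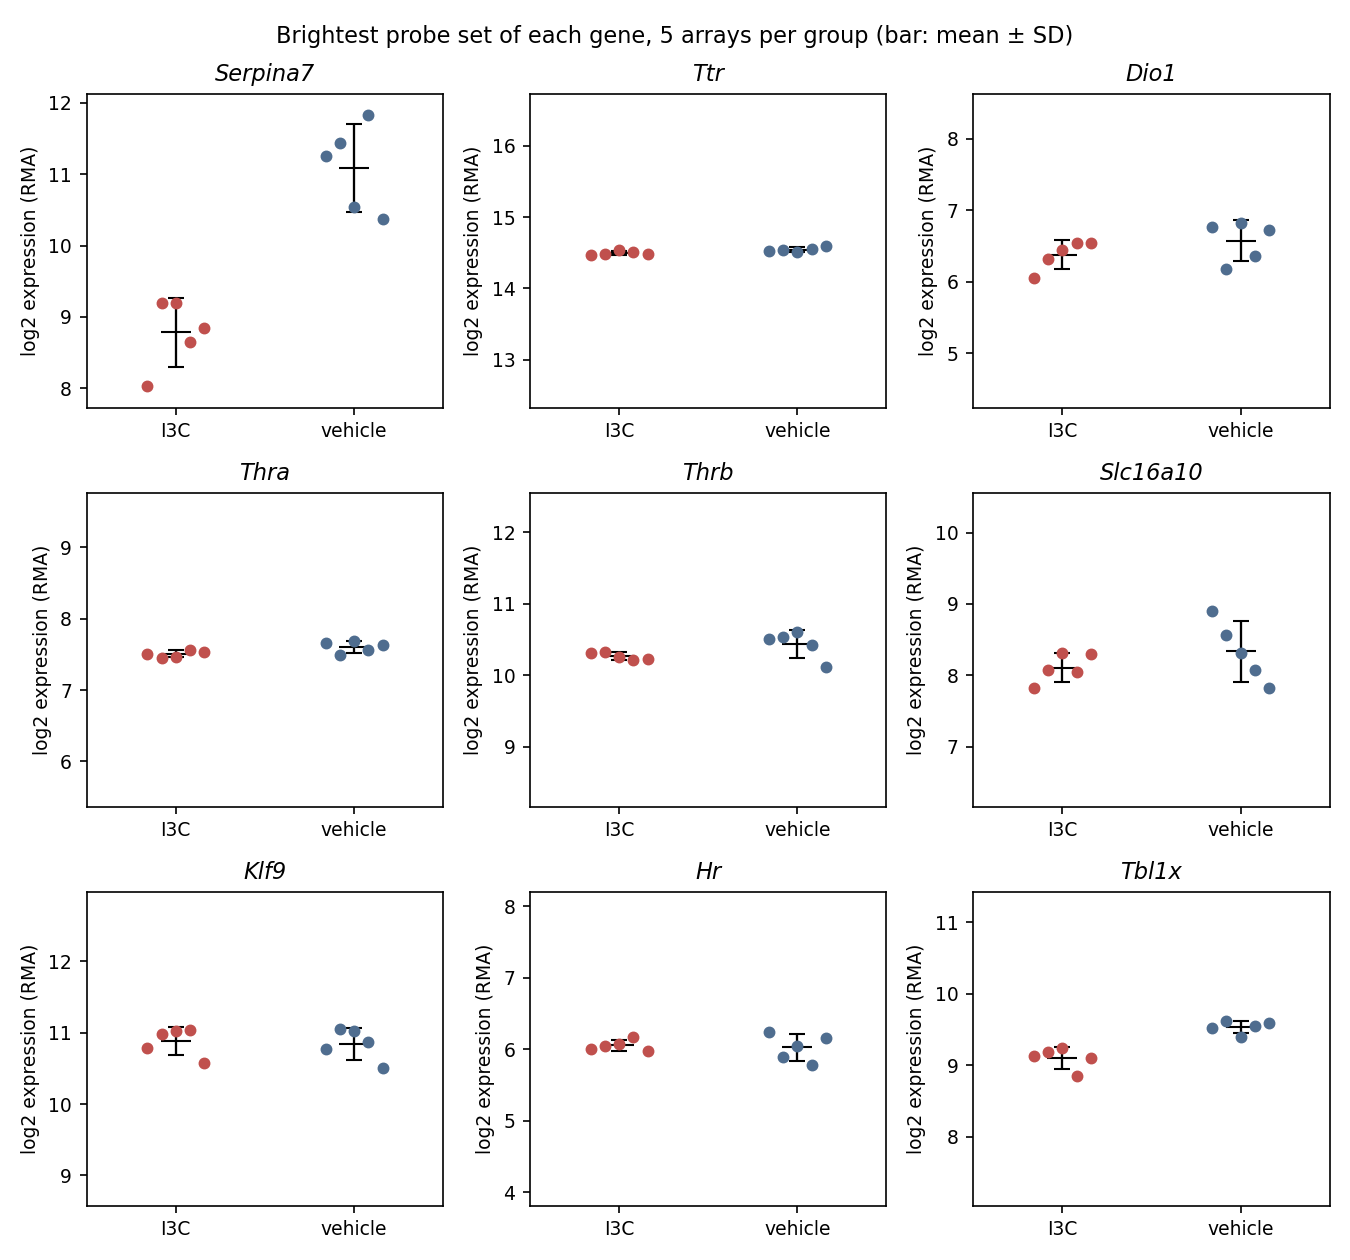
Log2 expression (y axis, RMA values, the same span in every panel) of the brightest probe set of each of the 9 genes in I3C and vehicle livers (x axis). Points are single arrays in the order of their numbers, and the bar is the mean ± SD of 5. The groups are apart for Serpina7 (8.03 to 9.20 in I3C, 10.37 to 11.83 in vehicle) and, by less, for Tbl1x.

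Transport into the cell and deiodination showed no called difference among the 9 genes. Slc16a10 (1370548_at) encodes a monocarboxylate transporter of aromatic amino acids that also carries thyroid hormones across the membrane. It was at 7.82, 8.08, 8.31, 8.04 and 8.29 in I3C livers, against 8.90, 8.57, 8.31, 8.07 and 7.82 in vehicle livers. The vehicle range contained that of the I3C livers, and the difference was -0.22 ± 0.17 (SE, adjusted p = 0.628, 95% interval -0.60 to 0.15). Dio1 (1369259_at) encodes type 1 deiodinase, the selenoenzyme of liver that removes iodine from either ring of thyroxine. Its level was 6.05, 6.32, 6.45, 6.54 and 6.54 in I3C livers and 6.77, 6.18, 6.82, 6.35 and 6.73 in vehicle livers, near the median of all probe sets. Whether this level stands above background was not tested. The 3 highest values were vehicle livers, but the groups overlapped, and the difference of -0.19 ± 0.14 (SE, adjusted p = 0.583) had a 95% interval of -0.48 to 0.10.

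The receptors Thra and Thrb, which bind T3 on target genes, were each read by several probe sets, and none passed. Thrb, the receptor form that prevails in liver, had its brightest probe set (1394456_at) at 10.31, 10.33, 10.26, 10.21 and 10.23 in I3C livers and at 10.51, 10.54, 10.60, 10.43 and 10.11 in vehicle livers. All I3C livers lay below vehicle livers 1 to 4, and vehicle 5 lay below them all. The difference was -0.17 ± 0.09 (SE, adjusted p = 0.374) with all arrays and -0.25 ± 0.06 (SE, adjusted p = 0.0241) without vehicle 5. With all arrays kept and weighted by their quality it was -0.23 ± 0.06 (SE, adjusted p = 0.0418). The other 3 Thrb probe sets differed by -0.14, -0.10 and -0.03, with adjusted p between 0.511 and 0.957 with all arrays, and none of them passed without vehicle 5. The brightest Thra probe set (1367726_at) was at 7.45 to 7.57 in I3C livers and at 7.48 to 7.68 in vehicle livers, a difference of -0.10 ± 0.06 (SE, adjusted p = 0.506). A second (1370691_a_at) was at 6.18 to 6.54 in I3C livers and 6.41 to 6.76 in vehicle livers, a difference of -0.20 ± 0.08 (SE, adjusted p = 0.262). The third (1380518_s_at), at 3.25 to 3.68 in I3C livers and 3.09 to 3.34 in vehicle livers, sat at the bottom of the scale, where the lowest value of the table is 3.00. Which receptor isoforms these probe sets read is not given in the sources used here. The changes of the 2 receptors differed by -0.08 ± 0.10 within arrays (Thrb minus Thra, SE, n = 5 per group, exact permutation p = 0.50, 0.75 adjusted over 3 gene pairs), and by -0.16 without vehicle 5 (exact permutation, adjusted p = 0.0476).

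Klf9 and Hr are genes that T3 induces through its receptors in several tissues. Klf9 encodes a zinc finger transcription factor, and Hr a corepressor that binds the thyroid hormone receptor. The brightest Klf9 probe set (1370209_at) was at 10.79, 10.98, 11.03, 11.03 and 10.58 in I3C livers and at 10.77, 11.05, 11.02, 10.87 and 10.50 in vehicle livers. The ranges nearly coincided, and the difference was 0.04 ± 0.12 (SE, adjusted p = 0.936, 95% interval -0.22 to 0.29). The dimmer probe sets, 1387882_at and 1390076_at, differed by 0.12 ± 0.10 and 0.11 ± 0.08 (SE, adjusted p = 0.646 and 0.574). Hr (1369336_at) was at 6.01, 6.04, 6.07, 6.17 and 5.98 in I3C livers and at 6.24, 5.90, 6.04, 5.78 and 6.16 in vehicle livers. The vehicle livers spread to both sides of the I3C livers, and the difference was 0.03 ± 0.09 (SE, adjusted p = 0.931, 95% interval -0.16 to 0.22). The mean of Hr in each group lay below the array medians, which were 6.21 to 6.29. Whether Hr was read above background was not tested, so a difference in its RNA could be missed. Klf9 and Hr differed from each other in their change by 0.01 ± 0.17 (SE, n = 5 per group, exact permutation p = 0.968, adjusted p = 0.968). Their signs are not settled: that of the brightest Klf9 probe set turned with array weights, with the GAPDH difference in the model and without I3C 4 or vehicle 5, and that of Hr with the beta-actin difference and without vehicle 2 or vehicle 4.

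Tbl1x encodes a WD40 protein of the NCoR corepressor complexes through which unliganded thyroid hormone receptors silence their targets. Its brightest probe set (1388478_at) was at 9.13, 9.18, 9.24, 8.85 and 9.10 in I3C livers and at 9.53, 9.61, 9.39, 9.55 and 9.59 in vehicle livers. Every I3C liver was below every vehicle liver, and the probe set fell by 0.43 ± 0.08 (SE, limma adjusted p = 0.00721), 1.35-fold. The call held when any 1 array was left out (adjusted p 0.00839 to 0.0209). It ended when a control difference entered the model: the value was -0.34 ± 0.13 (adjusted p = 0.258) for GAPDH and -0.36 ± 0.10 (adjusted p = 0.0994) for beta-actin. The GAPDH difference did not overlap between the groups, so the call lost with it does not tell RNA quality from treatment. A second probe set (1379469_at) was at 7.80, 7.72, 7.79, 7.08 and 7.43 in I3C livers and at 8.13, 8.04, 8.37, 8.10 and 6.81 in vehicle livers. Vehicle 5 was the lowest of all 10 arrays there, and the difference was -0.32 ± 0.25 (SE, adjusted p = 0.627) with it and -0.59 ± 0.14 (SE, adjusted p = 0.0249) without it. The last and dimmest probe set (1393491_at) differed by -0.25 ± 0.18 (SE, adjusted p = 0.598), and vehicle 5, at 4.50, was again the lowest array. Without vehicle 5, 4 of the 18 probe sets fell: Serpina7, both brighter probe sets of Tbl1x and the brightest of Thrb.

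Tbl1xr1, the close relative of Tbl1x in the same corepressor complexes, moved the other way. Its brightest probe set (1389545_at) was at 10.48, 10.32, 10.32, 10.41 and 10.12 in I3C livers and at 9.88, 9.79, 9.90, 9.998 and 9.83 in vehicle livers. The groups did not overlap, and it rose by 0.45 ± 0.08 (SE, limma adjusted p = 0.00396), 1.37-fold. A second probe set (1394107_at) also rose, by 0.55 ± 0.13 (SE, adjusted p = 0.024), and the other 3 were higher by 0.22 to 0.49 without passing. With the GAPDH difference in the model Tbl1xr1 was at 0.43 ± 0.13 (adjusted p = 0.149), and with the beta-actin difference it kept its call. Of 15 measured receptor partners, corepressors and coactivators outside the 9 genes it was the only one to pass limma (1 rose and 0 fell, against 3.32% and 3.11% of all genes, and an unadjusted p under 0.05 gave the same counts). Kat2b, a histone acetyltransferase and after Tbl1xr1 the brightest of this list, differed by -0.00 ± 0.12 (SE, adjusted p = 0.999), and the median of the list was -0.04. Ncor1, the scaffold of the complex, picked with its value known, differed by -0.08 ± 0.06 (SE, adjusted p = 0.564).

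**Figure D3:**
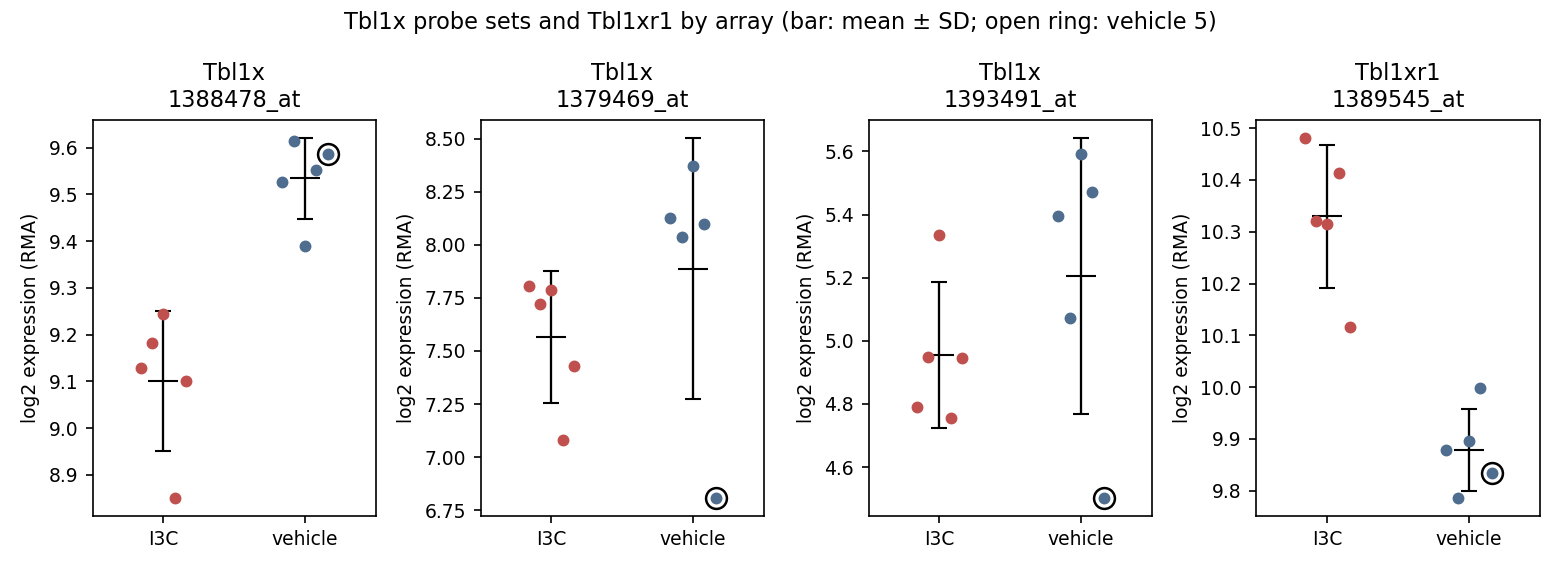
Log2 expression (y axis, RMA values, scaled separately in each panel) of the 3 probe sets of Tbl1x and the brightest of Tbl1xr1 in I3C and vehicle livers (x axis). Points are arrays, the bar is the mean ± SD of 5, and the open ring marks vehicle 5. Vehicle 5 lies with its group at 1388478_at and 1389545_at and is the lowest array at 1379469_at (6.81) and 1393491_at (4.50).

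Among other carriers and transporters, Crym and Slco2b1 fell. Of 10 measured genes 2 fell and 0 rose, with a median difference of -0.21, against 3.11% fallen and 3.32% risen of all genes. At an unadjusted p under 0.05, 6 were lower and 0 higher, against 10.2% and 9.62% of all genes. Crym, a cytosolic protein that binds T3, was at 7.96, 7.81, 8.12, 7.996 and 8.39 in I3C livers and at 8.60, 8.85, 8.77, 8.83 and 8.85 in vehicle livers. All I3C livers were below all vehicle livers, and Crym fell by 0.73 ± 0.10 (SE, limma adjusted p = 0.00100), 1.65-fold. With GAPDH as a covariate its difference was -0.70 ± 0.17 (adjusted p = 0.0795), and 0 genes of the list passed. Slco2b1, an organic anion transporter, fell by 0.27 ± 0.06 (SE, limma adjusted p = 0.0316), at 9.78 to 10.02 in I3C livers and 10.08 to 10.24 in vehicle livers. Its call ended without I3C 1, 2, 4 or 5 or vehicle 1, 2 or 3 (adjusted p 0.0504 to 0.0826), which left 1 fallen gene in the list, and its second probe set did not pass. Slco1a4, a thyroxine-carrying organic anion transporter picked with its value known, was at 11.44 to 12.16 in I3C livers and 11.94 to 12.86 in vehicle livers (-0.62 ± 0.17, SE, adjusted p = 0.0594). Without vehicle 5, 4 genes of this list fell, with Slco1a4 at -0.75 ± 0.15 (adjusted p = 0.00947) and the bile acid transporter Slc10a1 at -0.26 ± 0.06 (adjusted p = 0.0216) added.

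Genes of deiodination, conjugation and lysosomal or selenoprotein handling moved in both directions. Of 9 measured genes 1 rose and 2 fell, against 3.32% and 3.11% of all genes, with a median of -0.08. Without adjustment, 1 was higher and 4 lower at a p under 0.05, against 9.62% and 10.2% of all genes. Iyd, which removes iodine from iodotyrosines and so returns iodide, was at 10.63, 10.45, 10.44, 10.72 and 10.20 in I3C livers and at 11.11, 11.07, 10.94, 11.02 and 10.86 in vehicle livers. The groups were apart, and Iyd fell by 0.51 ± 0.09 (SE, limma adjusted p = 0.00734). Its call held in all 20 alternatives, the GAPDH (-0.72 ± 0.14) and beta-actin (-0.58 ± 0.12) differences included. Ugt2b1, a glucuronosyltransferase, rose by 1.28 ± 0.11 (SE, limma adjusted p = 4.30e-05), with 13.57 to 13.62 in I3C livers and 11.92 to 12.60 in vehicle livers. The sulfotransferase Sult1a1 fell by 0.40 ± 0.10 (SE, limma adjusted p = 0.0315), a call that ended without I3C 1, 2, 3 or 5 or vehicle 1 or 2 (adjusted p 0.0625 to 0.0863). The count of fallen genes in this list was 1 to 3 when 1 array was left out. The deepest differences, named for their values, were those of the sulfotransferases Sult1c3 (-1.19 ± 0.32, SE, adjusted p = 0.0536) and Sult1c2 (-0.88 ± 0.27, SE, adjusted p = 0.0999), and Sult1c2 passed without vehicle 5 (-1.12 ± 0.22, SE, adjusted p = 0.00939). Dio2 and Dio3, the other deiodinases, picked with their values known, differed by -0.08 ± 0.11 and 0.02 ± 0.07 (SE, adjusted p = 0.82 and 0.943).

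Of 15 measured liver genes known to respond to T3, 5 rose and 0 fell, against 3.32% and 3.11% of all genes, with a median of 0.19. Before adjustment, 6 were higher and 2 lower at a p under 0.05, against 9.62% and 10.2% of all genes. The largest difference below 0, named for its value, was that of Cyp7a1 (-1.07 ± 0.32, SE, limma adjusted p = 0.0887). The risen genes were Fgf21, a hormone of fasting (2.56 ± 0.24), Me1, malic enzyme (1.89 ± 0.12), Pdk4, which restrains pyruvate oxidation (0.82 ± 0.17), and Bcl3, a nuclear cofactor of NF-kappaB (0.55 ± 0.13). Apoa1, the main apolipoprotein of HDL and the fifth, was at 0.38 ± 0.07 and is named because of its value; it is also a hepatocyte marker above (SE throughout, limma adjusted p 2.53e-06 to 0.0352). These genes also answer to other factors, as Me1 does to NRF2 and Fgf21 to ATF4 and PPAR alpha. Bcl3 lost its call without I3C 1, 3 or 4 or vehicle 1, 3 or 4 (adjusted p 0.0583 to 0.0834). Its dimmer or less changed probe sets 1385627_at and 1380414_at did not pass (0.27 ± 0.13 and 0.25 ± 0.16, SE, limma adjusted p = 0.370 and 0.509). With GAPDH as a covariate 2 genes of the list rose, with Pdk4 at 0.68 ± 0.28 (adjusted p = 0.293), and with the beta-actin difference 2 rose as well. Thrsp, a lipogenic protein that T3 induces strongly in liver, was at 11.90 to 13.11 in I3C livers and 12.02 to 12.82 in vehicle livers (0.19 ± 0.21, SE, adjusted p = 0.774). Gpd2, mitochondrial glycerol phosphate dehydrogenase and a further T3-induced gene, differed by 0.11 ± 0.09 (SE, adjusted p = 0.67), and both are named after their values were known.

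**Figure D4:**
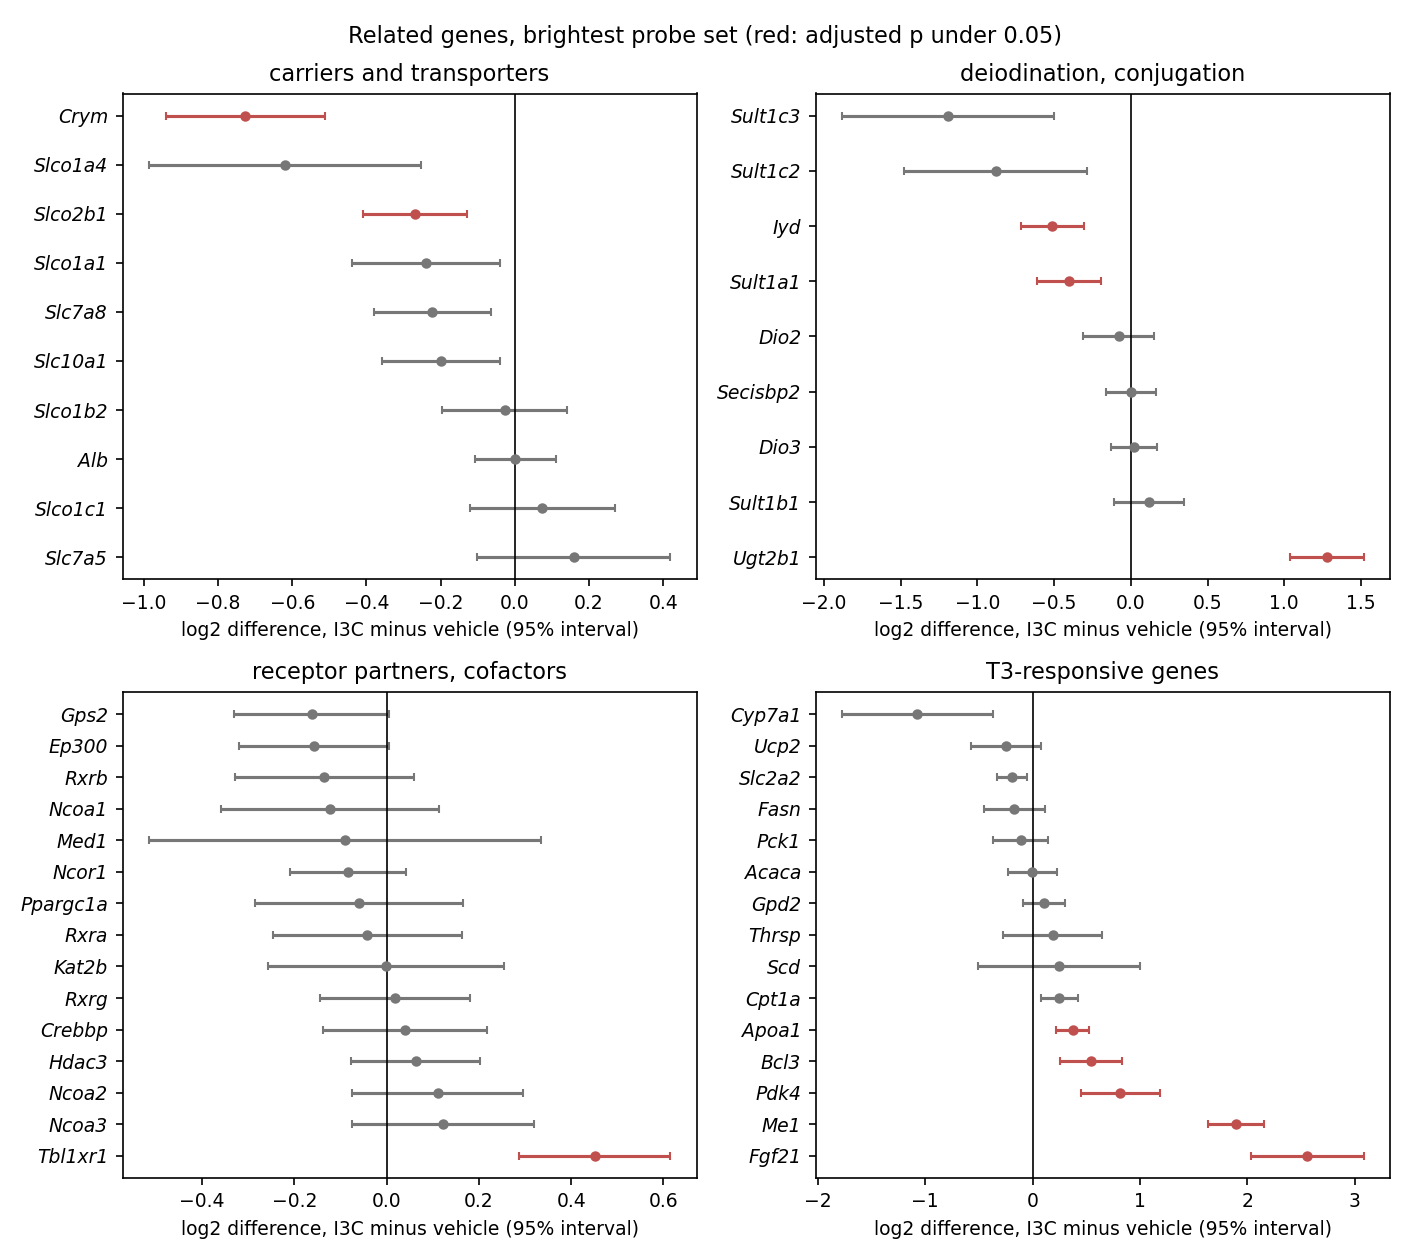
Log2 difference between I3C and vehicle livers (x axis, scaled separately in each panel) for the brightest probe set of each related gene (y axis), with 95% intervals and n = 5 per group, in the 4 related lists. Red marks an adjusted p under 0.05: Crym, Slco2b1, Iyd and Sult1a1 on the left of 0, and Ugt2b1, Tbl1xr1, Apoa1, Bcl3, Pdk4, Me1 and Fgf21 on the right.

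Genes with profiles most like those of Serpina7 and Tbl1x were found by the root-mean-square difference between log2 profiles centred on their mean, over 10 arrays and 14217 genes, as a description. Nearest to Serpina7 were Mtmr7 (0.42), Tsc22d1 (0.52) and Inhba (0.53 log2 units), whose own differences were -1.83, -2.01 and -1.65. Nearest to Tbl1x were Cdh1, which encodes E-cadherin (0.07), Nt5e, an ecto-nucleotidase (0.08), and the transcription factor Nfib (0.08), with differences of -0.41, -0.42 and -0.45.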

How the data were processed

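Log2 expression values made by the authors with RMA, the robust multi-array average, were used as deposited. They cover 10 arrays of rat liver RNA, 5 per group. The submitters' processing notes name RMA. Its software and version are not given in the sources used. The method aligns the arrays' distributions, removes a shift common to all genes and compresses large folds. Arrays correlated at 0.983 to 0.997, and no array was a copy of another (SD of the difference at least 0.17). The number of arrays limits the precision.

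Of 31099 probe sets, 57 manufacturer's controls were left out of the tests. Names came from the platform annotation of 2016, updated by Entrez ID through a RefSeq table (GRCr8, names only): 1 gene was assigned to 20826 probe sets, several to 436 and none here to 9780. Genes in related lists and cell type markers were read through their brightest probe set (highest mean over all arrays), 49 of 56 listed symbols in the 4 related lists being measured. Sequences are RefSeq's.

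Differences of I3C minus vehicle were fitted in R 4.3.3 by limma 3.58.1 with lmFit, then eBayes (no trend, 4.60 prior degrees of freedom). Tests were two-sided, and p-values were adjusted by Benjamini-Hochberg over 31042 probe sets, with a threshold of 0.05. "Rose" and "fell" are kept for differences past it, and a difference is given ± SE. Gene pairs and control differences were compared by exact permutation over 252 splits. On simulated arrays for I3C minus vehicle over 31042 probe sets the fit recovered 73.1% of 67 probe sets changed by 0.5 log2 units and 100% of 67 changed by 1, with 9 unchanged ones called. The members and lists were chosen with earlier results of these data known. Named genes are all members, up to 4 called genes per direction and list (the 2 brightest where under 2 were called), Alb, Cyp1a1, and the 3 nearest profiles of each called member. Alternatives covered the variance model, replicate block, dim probe sets (mean under 6), quantile and median rescaling, array weights, no moderation, a threshold of 0.01, control differences as covariates, averaging each gene's probe sets, and leaving out each array. Same-numbered arrays did not deviate together (correlation of deviations -0.28 to 0.22, over 0.1 in 1 of 5 pairs), so the numbers were not taken as pairs.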

Additional observations from a re-analysis of the deposited data

Results flagged for a closer look

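The Tbl1x probe set 1379469_at was at 6.81 in vehicle 5 and at 8.04 to 8.37 in the other vehicle livers, a gap wide enough to stand out in a group of 5 by Dixon's criterion. Kat2b (1375205_at) was at 9.50 in vehicle 5 and at 10.07 to 10.16 in the other vehicle livers, by the same criterion. Both values belong to the array farthest from its group. In all, 72 groups were examined, and chance flags about 1 in 20.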

How the results depend on the processing

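Serpina7 stayed past the threshold in all 20 alternatives (-2.72 to -2.02, adjusted p up to 0.0173), as did Iyd. The count of fallen member probe sets was 2, against 1 with the GAPDH or the beta-actin difference in the model, and 2 to 4 with 1 array left out. No alternative called a member as risen (0 in each). Over all probe sets 715 fell and 772 rose. With array weights 1122 fell, without moderation 380, at a threshold of 0.01 272 fell and 374 rose, with the GAPDH difference 184 and 171, and with the beta-actin difference 334 and 418. Leaving out 1 array gave 477 to 1180 fallen and 548 to 905 risen, 1180 without vehicle 5. In the 4 related lists together 4 genes fell and 7 rose. With array weights 7 fell, at 0.01 2 fell, with the GAPDH difference 1 fell and 3 rose, with the beta-actin difference 4 rose, and with 1 array left out 2 to 7 fell and 6 to 7 rose: 2 without I3C 1, I3C 5, vehicle 1 or vehicle 2, and 7 without vehicle 5. The replicate block, which the numbers do not support as pairs (0 of 5 I3C arrays correlated best with their own number), gave 490 fallen and 542 risen probe sets and 2 fallen members. An exact test within same-numbered pairs cannot go below 0.0625, so its adjusted p of 0.188 for Serpina7 minus Ttr (-2.26), and 0.125 for the GAPDH (-0.22) and beta-actin (-0.19) differences, says nothing about stability. With 1 array left out Serpina7 minus Ttr was -2.45 to -2.08, Thrb minus Thra -0.16 to -0.0197, Klf9 minus Hr -0.11 to 0.0908, the GAPDH difference -0.25 to -0.17 and that of beta-actin -0.23 to -0.14. The beta-actin call ended without I3C 1, 3, 4 or 5 or vehicle 1, 3 or 4 (adjusted p up to 0.0952).

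Signs turned only among differences that passed in neither fit. With the GAPDH difference Ttr was at 0.0017, Thrb 1387983_at at 0.26, and Klf9 at -0.28 (1370209_at) and -0.013 (1387882_at). With the beta-actin difference Thrb 1370474_at was at 0.0402, Klf9 1387882_at at -0.0012, Hr at -0.0777, Tbl1x 1379469_at at 0.21, Tbl1x 1393491_at at 0.11 and Kat2b at 0.18. Klf9 1370209_at was at -0.0199 with array weights, and Kat2b at 0.012 after median centring. With 1 array left out Thrb 1387983_at ran from -0.14 to 0.0948, Klf9 1370209_at from -0.0484 to 0.11, Hr from -0.0326 to 0.0839, Kat2b from -0.12 to 0.0407 and Alb from -0.00081 to 0.0062. The cause of these moves was not tested. Dim probe sets (Thra 1380518_s_at, Thrb 1387983_at, Klf9 1390076_at, Tbl1x 1393491_at) and bright ones (Ttr, Alb) lie toward the ends of the scale, where differences can be understated. Hr and Dio1 lie near the array medians, and whether they were read above background was not tested.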
